A study of Mus musculus with 6 samples.

Results

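The tripartite motif (TRIM) family was examined in B16F10, a mouse melanoma cell line, from 3 wild-type libraries (WT, replicates 1, 2 and 3) and 3 libraries of the same line with genotype ANXA10-/- (A10KO, replicates 1, 13 and 14). Members were all genes of the series table named Trim plus a number, with or without a letter from a to d. There were 68 such genes among 51912, and 33 of them were expressed, meaning at least 1 TPM in 3 or more of the 6 libraries. TPM values take account of transcript length and of the library total, so levels of different genes can be set side by side, whereas the depth of the libraries is unknown. No treatment is named for either group, and how the knockout was made, and whether 1, 13 and 14 are clones, is not stated in the labels used here. All p-values are therefore set against the variation among these 6 libraries alone, and that variation may be technical.

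TRIM proteins carry a RING domain, one or more B-boxes and a coiled coil, followed by a C-terminal part that differs between subfamilies and often binds the substrate. Most act as E3 ubiquitin ligases, the enzymes that pick the protein to be tagged with ubiquitin. Many members are induced by interferon and restrict viruses, and others repress transcription or control the cytoskeleton. The series title names TRIM41 as the ligase that ubiquitinates protein kinase D1 (PKD1), a process it says annexin A10 suppresses.

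Between 11889 and 12236 genes per library reached 1 TPM. All 7 melanocyte markers were above the expression threshold, with a summed level of 8913 to 10020 TPM in WT and 9410 to 11250 TPM in A10KO. Mitochondrially encoded transcripts took 6.32% to 6.56% of TPM in WT and 7.93%, 14.7% and 7.37% in A10KO replicates 1, 13 and 14, so replicate 13 stood apart. With replicate 13 left out, or with mitochondrial transcripts removed, 0 members were called, as with all 6 libraries. Leaving out replicate 13 still moved single members. The log2 change of Trim14 was then 0.84 (limma adjusted p = 0.0516), in place of 0.62 (0.433) with all 6 libraries. Anxa10 and Prkd1, the gene for PKD1, were listed at 0 TPM in all 6 libraries, and Anxa10 thus gave no check of the A10KO label.

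The expressed members covered nearly every subfamily. Subfamilies were taken from a list, and the domains were not checked in protein sequences. Of 37 genes listed with a PRY-SPRY domain and no other named C-terminal domain, 16 were expressed. All 4 NHL-repeat members (Trim2, Trim3, Trim32 and Trim71) and 3 of 4 members of the PHD-bromodomain group of transcription cofactors (Trim24, Trim28 and Trim33) were expressed. One of 3 muscle RING-finger genes (Trim63) was expressed, with Trim46 as the 1 of 4 members of the microtubule-binding COS group. Trim37 (MATH domain), Trim23 (ARF domain), Trim45 (filamin domain) and Trim13 (membrane anchored) were the other C-terminal types present. Of 4 members listed without a RING domain, Trim14 and Trim44 were expressed.

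Of the 35 members that were not expressed, 10 were listed at 0 in all 6 libraries: Trim30b, Trim30c, Trim31, Trim34b, Trim40, Trim42, Trim55, Trim58, Trim60 and Trim61. Another 22 never reached 1 TPM. Among these was Trim25, a ligase for the viral RNA sensor RIG-I, at no more than 0.02 TPM in any library. The remaining 3 reached 1 TPM in only 1 or 2 libraries: Trim12c, Trim30a and Trim30d.

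Levels spanned 3 classes, with 2 expressed members above a mean of 100 TPM, 14 between 10 and 100 and 17 under 10. Trim14, an adaptor in antiviral signalling from mitochondria, had the highest level by a wide margin. It stood at 768.24, 741.1 and 737.86 TPM in WT replicates 1, 2 and 3 and at 1344.72, 853.99 and 1335.99 TPM in A10KO replicates 1, 13 and 14. Every A10KO value lay above every WT value, and replicate 13 lay closest to WT. Trim28, the corepressor recruited by KRAB zinc finger proteins to silence retroelements, followed at 243.69, 178.55 and 248.59 TPM in WT and 233.7, 260.68 and 248.73 TPM in A10KO. Its groups overlapped, with WT replicate 2 lowest.

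Trim27, a ligase of the nucleus and the endosome, stood at 83.24, 70.72 and 84.43 TPM in WT and 66.47, 64.33 and 80.02 TPM in A10KO. Trim35 stood at 35.54, 46.43 and 35.57 TPM in WT and 36.1, 41.5 and 38.09 TPM in A10KO. In both, the groups overlapped. Trim44, which has a ubiquitin-protease type zinc finger in place of the RING, stood at 33.91, 44.54 and 36.53 TPM in WT and 24.3, 47.94 and 40.21 TPM in A10KO. Its lowest and its highest value were both A10KO libraries.

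Trim63, the muscle RING-finger gene also known as MuRF1, has a role in breaking down muscle myosin. Its level was the next highest, with 30.6 ± 2.68 TPM in WT and 32.8 ± 5.7 TPM in A10KO (SD, n = 3 per group). Markers of muscle were low beside it. Myog and Myh1 were at 0 in all 6 libraries, and the 5 muscle markers summed to 4 to 6.93 TPM in WT and 5.9 to 21.02 in A10KO, most of it Des, the intermediate filament gene.

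**Figure D1:**
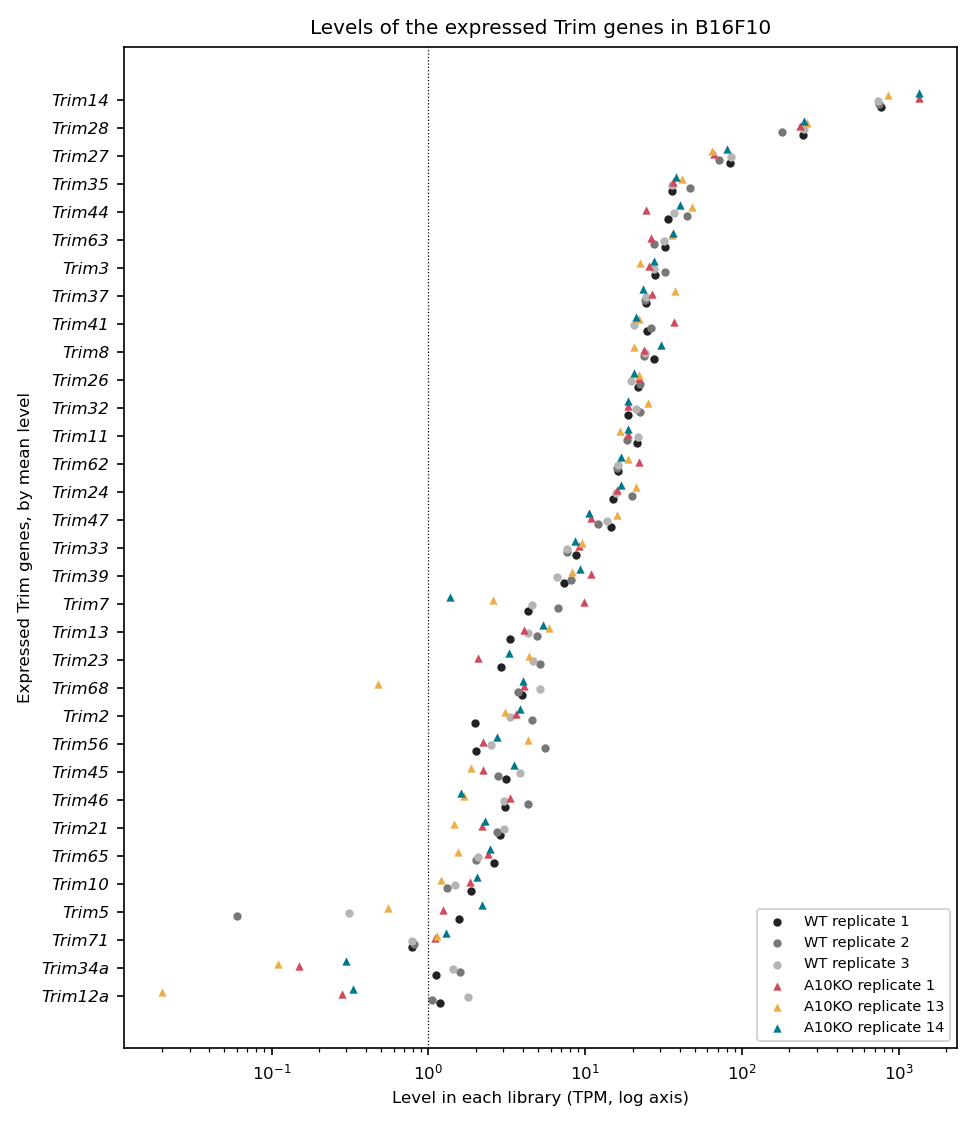
Level of each of the 33 expressed Trim genes in TPM on a log axis, with 1 symbol per library (circles WT, triangles A10KO) and genes ordered by mean level. The dotted line marks 1 TPM; Trim14 lies apart at the top, and Trim34a and Trim12a reach 1 TPM in the WT libraries only.

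Trim14 made up 51.3% to 53.0% of the summed TPM of all 68 members in WT and 66.6%, 54.1% and 65.5% in A10KO replicates 1, 13 and 14. The family summed to 1434 ± 33.7 TPM in WT and 1879 ± 262 TPM in A10KO. Without Trim14 the sums were 684.6 ± 24.4 and 700.9 ± 24 TPM (SD, n = 3 per group), a difference smaller than the spread between libraries. Trim14 (ENSMUSG00000039853, GRCm38 chromosome 4, 46493781 to 46536141, minus strand) shares 1356 exonic bases, 31.3% of its total, with Nans on the opposite strand. Nans, a sialic acid synthesis gene, had 94.31 ± 5.22 TPM in WT and 93.99 ± 3.99 TPM in A10KO. Whether strand was used in counting is not stated in the labels.

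No member was called in A10KO against WT. In the limma fit across 12068 genes, 0 of the 33 tested members passed an adjusted p of 0.05, beside 5 genes in all (0.0414%). At an unadjusted p under 0.05 there were 3 members, Trim14 higher and Trim34a and Trim12a lower, beside 8.83% of all genes (2.56% higher and 6.27% lower). Trim34a and Trim12a passed the filter through WT alone, so their groups could not overlap. Of the 30 members at 1 TPM in both groups, 1 was higher and 0 were lower at that p. The median log2 change over the 33 was -0.01, with 16 above 0 and 17 below, and over all tested genes it was -0.04. Log2 changes are A10KO minus WT after adding 1 TPM to each value, so they come out too small for genes of low level. Changes were within 0.2 of 0 for 17 members (51.5%), and 53.9% of all genes lay within that range.

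All A10KO values lay above all WT values for 4 members and below them for 4, together 24.2% of 33, beside 17.1% of all genes tested. The higher members were Trim14, Trim39, Trim62 and Trim71, and the lower ones were Trim3, Trim21, Trim12a and Trim34a. Among all genes the share was 5.61% higher and 11.5% lower. Trim71, Trim12a and Trim34a passed the expression threshold through 1 group alone and so had to differ. Of the 30 members that reached 1 TPM in both groups, 5 had groups that did not overlap (16.7%). The 17.1% over all genes still includes genes that passed the threshold through 1 group alone, so these shares are of unlike sets.

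**Figure D2:**
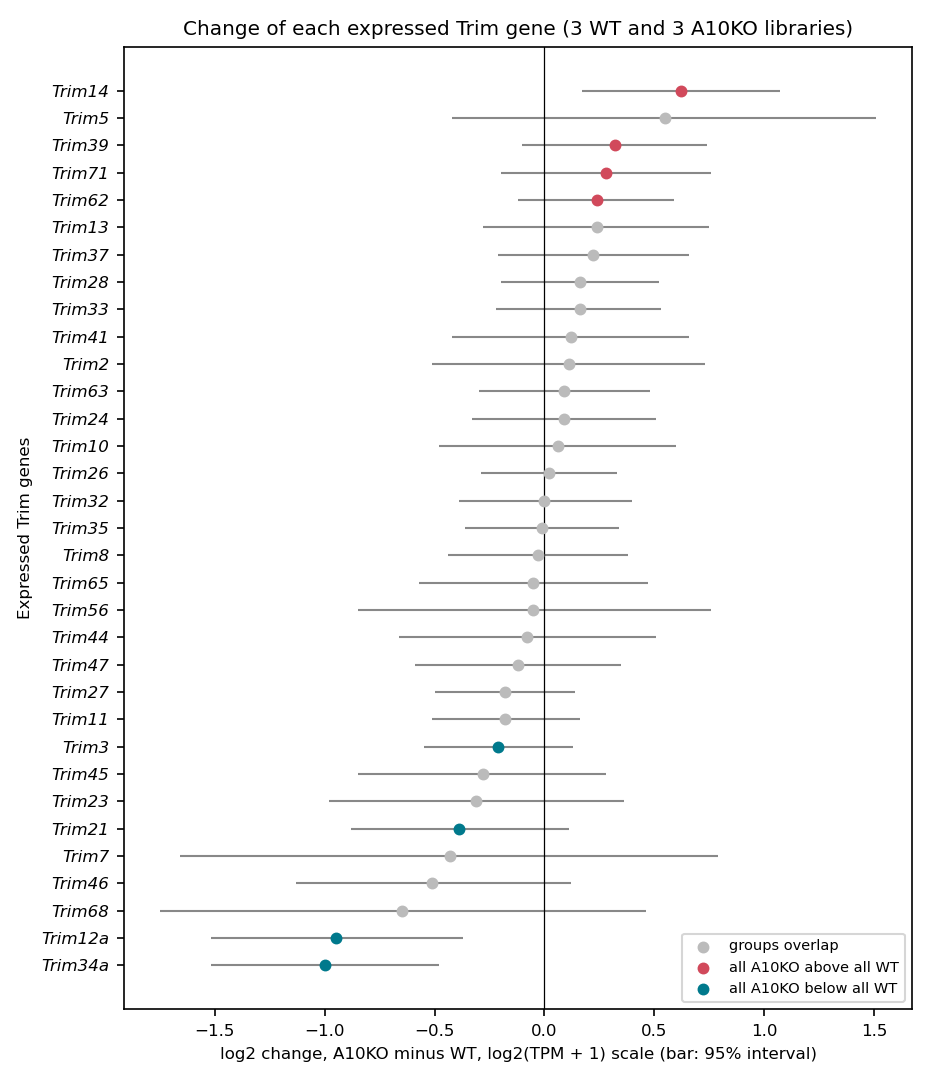
Log2 change of each expressed Trim gene, A10KO minus WT, on the log2(TPM + 1) scale from the limma fit, with bars for the 95% interval (3 libraries per group). Only the intervals of Trim14, Trim12a and Trim34a leave out 0, before adjustment for the number of genes tested, and Trim12a and Trim34a entered the test through WT alone.

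Among members without overlap, Trim39, Trim62 and Trim3 were at 1 TPM in both groups and are described here after their values were seen. Trim39, a ligase tied to the control of apoptosis, stood at 7.31, 8.12 and 6.62 TPM in WT and 10.93, 8.26 and 9.22 TPM in A10KO (log2 change 0.32, 95% interval -0.10 to 0.74). Its lowest A10KO value was replicate 13, just above the highest WT value. Trim62 stood at 16.23, 16.04 and 16.09 TPM in WT and 22.11, 18.79 and 16.96 TPM in A10KO (log2 change 0.24, 95% interval -0.12 to 0.59), with WT values very close to each other and replicate 1 highest. Trim3, an NHL-repeat ligase of neurons, stood at 27.62, 32.43 and 27.3 TPM in WT and 25.58, 22.31 and 27.26 TPM in A10KO (log2 change -0.21, 95% interval -0.55 to 0.13). The nearest values of the 2 groups differed by less than 0.1 TPM in Trim3 (27.3 in WT and 27.26 in A10KO), so the separation was slight. None of these intervals leaves out 0.

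The cofactors of transcription overlapped between the groups. Trim24, a coactivator and histone reader, stood at 15.09, 19.85 and 15.61 TPM in WT and 15.93, 21.15 and 16.89 TPM in A10KO (log2 change 0.09, 95% interval -0.33 to 0.51), and Trim33, which acts on SMAD4, at 8.74, 7.64 and 7.65 TPM in WT and 9.06, 9.48 and 8.56 TPM in A10KO (log2 change 0.16, 95% interval -0.22 to 0.53). With Trim28 (log2 change 0.16, 95% interval -0.20 to 0.52) all members of the PHD-bromodomain group that were tested had log2 changes between 0.09 and 0.16, and 0 of 3 were called. Replicate 13 was the farthest A10KO library in each of them.

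Of the NHL-repeat members, Trim32, mutated in a limb-girdle muscular dystrophy, had 20.6 ± 1.85 TPM in WT and 20.8 ± 3.66 TPM in A10KO (SD, n = 3 per group), with a log2 change of 0.00. Trim2, a ligase for neurofilament light chain, had 3.28 ± 1.29 TPM in WT and 3.5 ± 0.369 TPM in A10KO (log2 change 0.11). The log2 changes of the 4 members of this group ranged from -0.21 for Trim3 to 0.28 for Trim71. Of members with single C-terminal types, Trim13, anchored in the endoplasmic reticulum, had 4.16 ± 0.81 TPM in WT and 5.08 ± 0.928 TPM in A10KO (log2 change 0.24), Trim23 4.23 ± 1.18 TPM in WT and 3.24 ± 1.16 TPM in A10KO (log2 change -0.31) and Trim45 3.25 ± 0.529 TPM in WT and 2.54 ± 0.858 TPM in A10KO (log2 change -0.28). Trim46, which bundles microtubules in axons, stood at 3.06, 4.29 and 3.03 TPM in WT and 3.31, 1.68 and 1.62 TPM in A10KO (log2 change -0.51, 95% interval -1.13 to 0.12). Replicates 13 and 14 lay below every WT value of Trim46 and replicate 1 within the WT range.

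The other expressed members were PRY-SPRY ligases and Trim8. Trim8, a regulator of cytokine signalling, had 25.1 ± 2.07 TPM in WT and 24.8 ± 5.17 TPM in A10KO, and Trim11 had 20.5 ± 1.82 TPM in WT and 18 ± 1.19 TPM in A10KO. Trim47 had 13.4 ± 1.37 TPM in WT and 12.4 ± 3.05 TPM in A10KO, and Trim65, a ligase for the RNA sensor MDA5 that shares 225 exonic bases with Trim47, had 2.22 ± 0.328 TPM in WT and 2.13 ± 0.504 TPM in A10KO. Trim10, known from red cell maturation, had 1.56 ± 0.288 TPM in WT and 1.69 ± 0.433 TPM in A10KO. The log2 changes of these 5 ran from -0.18 for Trim11 to 0.06 for Trim10, and each interval held 0.

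Trim41 (ENSMUSG00000040365, GRCm38 chromosome 11, 48806404 to 48817353, minus strand, protein coding) had a mean level with 8 of the 33 expressed members above it. It stood at 24.88, 26.13 and 20.36 TPM in WT and at 36.8, 22.02 and 21.08 TPM in A10KO replicates 1, 13 and 14. Only A10KO replicate 1 lay above the WT range, and the other A10KO libraries lay within it. The log2 change was 0.12, with a 95% interval from -0.42 to 0.66 (limma adjusted p = 0.899, exact two-sided permutation p = 0.8 with n = 3 per group, where 0.1 is the smallest possible), so these data do not resolve a difference of the size that the interval spans. Without A10KO replicate 1 the log2 change was -0.13.

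The neighbourhood of Trim41 did not share the high value of replicate 1 as a whole. Relative to the WT mean on the log2 scale, Trim41 deviated by 0.62, -0.10 and -0.16 in A10KO replicates 1, 13 and 14. The median of the 10 other tested genes within 1 Mb was -0.06, -0.43 and -0.31, and the median of 985 other genes on chromosome 11 was -0.12, -0.05 and -0.15. Of those 10 neighbours, 7 were highest in replicate 1 among the A10KO libraries. The share over the chromosome or over all genes was not computed, so this count is not read as a local trait.

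Trim7, which starts 8787 bases from Trim41 and encodes a PRY-SPRY ligase that binds glycogenin, was 1 of the neighbours highest in replicate 1. It stood at 4.32, 6.69 and 4.57 TPM in WT and at 9.88, 2.58 and 1.37 TPM in A10KO, so replicate 1 lay above and the other A10KO libraries below every WT value. Its log2 change was -0.43 (95% interval -1.66 to 0.79, limma adjusted p = 0.83), with 0.03 without A10KO replicate 14 and -1.07 without A10KO replicate 1 (limma adjusted p = 0.985 and 0.355). Rack1, a ribosomal scaffold protein gene, lies tail to tail with Trim41 and shares 31 exonic bases with it on the opposite strand (0.883% of the exonic bases of Trim41). Rack1 had 1350 ± 46.9 TPM in WT and 1119 ± 107 TPM in A10KO, and unlike Trim41 it was not above WT in replicate 1, at 1236.64 TPM.

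A wider spread among the A10KO than the WT libraries was common in the family, though less so than over all genes. The SD of log2 values was larger in A10KO than in WT for 22 of 33 members (66.7%), and for 78.2% of all genes. Replicate 13 was the A10KO library farthest from the WT mean for 18 members (54.5%) and for 48.4% of all genes. Trim68 is an example, at 3.97, 3.74 and 5.14 TPM in WT and 4.09, 0.48 and 3.98 TPM in A10KO, where replicate 13 alone was low. Without replicate 13 its log2 change went from -0.65 to -0.06. Trim37, a ligase that limits centrosome assembly, was at 24.26, 24.13 and 24.55 TPM in WT and 26.8, 37.2 and 23.17 TPM in A10KO, with replicate 13 highest, replicate 1 also above every WT value and replicate 14 below them. Trim68, Trim37 and Trim7 were chosen for description after their values were seen.

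**Figure D3:**
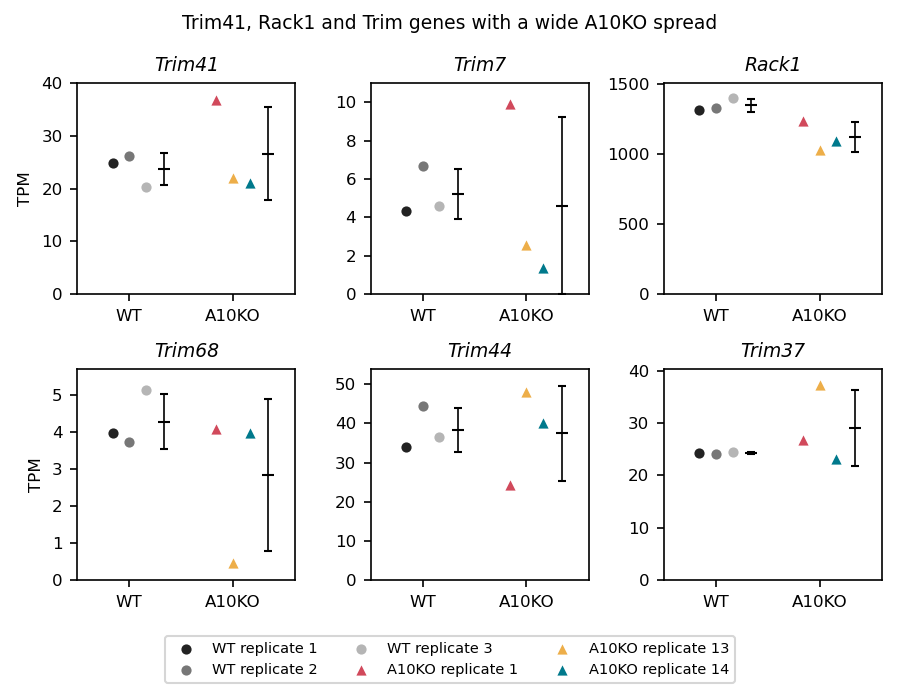
TPM of Trim41, Trim7, Rack1, Trim68, Trim44 and Trim37 in each library (circles WT, triangles A10KO), with the mean and SD of 3 libraries beside each group and every axis starting at 0. Trim41 and Trim7 are highest in A10KO replicate 1, at 36.8 and 9.88 TPM, and Trim68 is lowest in A10KO replicate 13, at 0.48 TPM.

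A list of 14 members was taken as known to be induced by type I interferon: Trim5, Trim12a, Trim12c, Trim14, Trim21, Trim25, Trim26, Trim30a to Trim30d, Trim34a, Trim34b and Trim56. Interferon acts through a transcription factor complex that contains IRF9 and binds a DNA element made of spaced GAAA repeats. The motif GAAA, any 2 bases, GAAA, searched on both strands of RefSeq promoters from 250 bases before to 50 after the start (GRCm38.p6), was found for 8 of the 13 listed members with a promoter (61.5%). It was found for 1 of 40 other members (2.5%), Trim2, and for 3.99% of all 27025 genes in that table. A match is a description of letters, not of binding.

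Of the 8, Trim5, Trim12a, Trim21, Trim26 and Trim34a were expressed, and Trim12c, Trim30a and Trim30d were not. The sequences below show 30 bases around 1 match in each, on the strand of the gene, with the match in capitals. Trim21 and Trim26 each hold a further match that overlaps the one shown.
Trim34a: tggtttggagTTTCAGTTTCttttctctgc
Trim12a: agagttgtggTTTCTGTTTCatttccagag
Trim5: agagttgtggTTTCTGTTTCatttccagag
Trim12c: agagttgtggTTTCTGTTTCatttccagct
Trim30a: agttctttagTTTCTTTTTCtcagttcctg
Trim30d: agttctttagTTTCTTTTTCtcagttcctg
Trim21: cctctgagagGAAACTGAAAgtgaaatttg
Trim26: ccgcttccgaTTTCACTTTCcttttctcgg
Trim5 and Trim12a have the same 30 bases, as do Trim30a and Trim30d. The windows lie at chr7:104244457-104244486 (plus strand, Trim34a), chr7:104315466-104315495 (minus, Trim12a), chr7:104288136-104288165 (minus, Trim5), chr7:104353359-104353388 (minus, Trim12c), chr7:104465210-104465239 (minus, Trim30a), chr7:104507871-104507900 (minus, Trim30d), chr7:102565450-102565479 (minus, Trim21) and chr17:36836976-36837005 (plus, Trim26). The match starts within 50 bases of the start set by the RefSeq promoter in 7 of the 8, and at position -160 from it in Trim26. That start can differ from the GENCODE one. For Trim12a the end of the promoter sequence was not found near the start of a GENCODE transcript of the gene. A cluster of 10 members, Trim21 not among them, lies between 104218793 and 104507849 of chromosome 7, and 3 of the 10 were expressed.

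In that cluster, Trim34a and Trim12a were at 1 TPM or more in every WT library and in no A10KO library. Both belong to the locus of the retrovirus restriction factor TRIM5. Trim34a stood at 1.12, 1.58 and 1.44 TPM in WT and 0.15, 0.11 and 0.3 TPM in A10KO, a ratio of mean TPM of 0.135. Its log2 change was -1 (SE 0.22, limma adjusted p = 0.259). Trim12a stood at 1.18, 1.05 and 1.79 TPM in WT and 0.28, 0.02 and 0.33 TPM in A10KO, a ratio of 0.157, with a log2 change of -0.95 (SE 0.25, limma adjusted p = 0.339). The groups did not overlap in either gene, and neither passed the threshold over all genes. Both entered the test through WT alone.

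The other members of the list did not share one direction. Trim21, the cytosolic antibody receptor, stood at 2.85, 2.73 and 3.01 TPM in WT and 2.19, 1.45 and 2.29 TPM in A10KO (log2 change -0.39, 95% interval -0.88 to 0.11, limma adjusted p = 0.655), without overlap. Trim26 stood at 21.72, 22.16 and 19.49 TPM in WT and 21.94, 21.95 and 20.37 TPM in A10KO, and its log2 change was 0.02 (95% interval -0.29 to 0.33). Trim56, which acts in the cytosolic DNA response, stood at 2.02, 5.57 and 2.52 TPM in WT and 2.22, 4.3 and 2.72 TPM in A10KO. Trim56 overlapped fully between groups, with WT replicate 2 highest. Trim14, the remaining listed member with a high level, had a log2 change of 0.62 (SE 0.19, limma adjusted p = 0.433), above WT in 3 of 3 A10KO libraries. Over the 7 listed members tested the median log2 change was -0.05, with 3 above 0 and 4 below.

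Inside the expression threshold by the smallest margin were Trim12a and Trim71, which each reached 1 TPM in exactly 3 libraries, the lowest of these at 1.05 and 1.1 TPM, and just outside were Trim30a and Trim12c, whose values at the same rank were 0.68 and 0.63 TPM. Trim71, a regulator of stem cell RNAs, stood at 0.79, 0.81 and 0.79 TPM in WT and 1.1, 1.14 and 1.3 TPM in A10KO. Trim12c stood at 0.63, 2.19 and 1.04 TPM in WT and 0.55, 0.15 and 0.33 TPM in A10KO. Trim30a stood at 0.68, 4.02 and 0.69 TPM in WT and 0.27, 0.1 and 0.14 TPM in A10KO. In both Trim12c and Trim30a all A10KO values lay below all WT values, WT replicate 2 was highest, and neither was tested. Trim30d was at 3.55 TPM in A10KO replicate 1 and at no more than 0.25 TPM in the others.

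Trim5 entered the test with 1.57, 0.06 and 0.31 TPM in WT and 1.24, 0.55 and 2.2 TPM in A10KO. Of the distinct 31-base words in its GENCODE transcripts, 37.9% also occur in Trim12c, and 48.7% of those of Trim34a occur in Trim34b. In WT, Trim5 was lowest in replicate 2, where Trim12c was highest. Their summed level was 2.2, 2.25 and 1.35 TPM in WT and 1.79, 0.7 and 2.53 TPM in A10KO, which overlapped. Trim34b was listed at 0 TPM in all 6 libraries, so its sum with Trim34a was the level of Trim34a alone. That sum was 1.12, 1.58 and 1.44 TPM in WT and 0.15, 0.11 and 0.3 TPM in A10KO, without overlap. How reads were divided within each pair is uncertain, and the separate values of these pairs are uncertain with it. Trim41 shared 0.112% of its words with other genes, and 23 of the 33 expressed members shared under 5%.

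**Figure D4:**
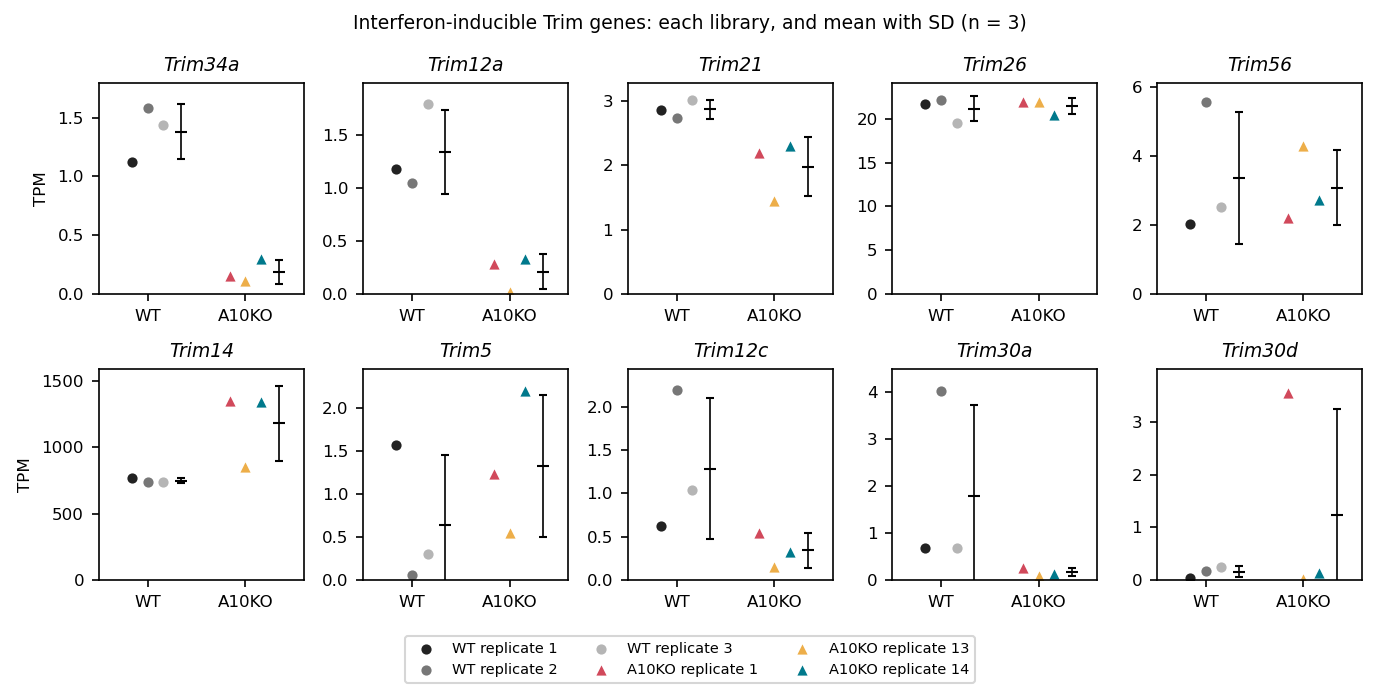
TPM of the 7 expressed interferon-listed Trim genes and of Trim12c, Trim30a and Trim30d in each library (circles WT, triangles A10KO), with the mean and SD of 3 libraries beside each group; bars that would pass below 0 end at the axis. Trim34a and Trim12a are at most 0.33 TPM in A10KO and at least 1.05 in WT, whereas all A10KO values of Trim14 lie above WT.

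Of 10 interferon pathway factors tested beside these genes, 1 fell over all genes, Isg15, from 53.67 to 8.827 TPM (limma adjusted p = 0.0207), and the list's median log2 change was -0.43 beside -0.04 over all tested genes, with 7 below 0 and 3 above. For 6 of the 10 all A10KO values lay below WT, beside 11.5% of all genes. One of the 6, Irf7, stood at 1.09, 1.3 and 1.07 TPM in WT and 0.35, 0.19 and 0.35 TPM in A10KO. It entered the test through WT alone, so its groups could not overlap, and it is part of the list's median and counts. The list was chosen with earlier results of these data known, so its median and counts are a description and no independent support. Irf9, the DNA-binding part of the complex, stood at 12.24 ± 0.522 TPM in WT and 4.617 ± 2.41 TPM in A10KO (log2 change -1.33, limma adjusted p = 0.297). Leukocyte markers summed to 2.86 to 5.52 TPM over 6 genes in WT and 0.91 to 1.51 TPM in A10KO, most of it Cd68, whereas Tyrobp and Cd3e were at 0 in all 6 libraries and Ptprc was at most 0.01 TPM. Their part in the values of Trim34a, Trim12a and Trim21 was not tested.

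None of the listed partners of the ligases was called, where 0.0414% of all genes were. All 12 listed E2 conjugating enzymes were tested, with 0 called, a median log2 change of -0.05 and a range from -0.19 to 0.40. The highest means were those of Ube2v1 (243.2 and 218.7 TPM in WT and A10KO), Ube2d3 (172.6 and 188.1) and Ube2k (131.6 and 145.9). The 6 genes for ubiquitin and its E1 enzymes had a median of -0.11 and 0 called. Ubb was highest, at 2204 and 1878 TPM, followed by Rps27a at 1757 and 1476. Of 8 family members with other symbols, 5 were tested and 0 called. Groups did not overlap for 3 of the 12 E2 genes (25%), 2 of the 6 ubiquitin and E1 genes (33.3%) and 2 of these 5 (40%). Over all tested genes the share was 17.1%. These lists were chosen with earlier results of these data known. Pml, the organiser of nuclear bodies, stood at 20.92 and 18.32 TPM, Rnf135 at 6.993 and 4.977, and Mid2, a microtubule-binding member, at 2.58 and 2.407. Of the kinases related to PKD1, Prkd3 stood at 9.597 and 9.637 TPM and Prkd2 at 0.97 and 1.737, with limma adjusted p = 0.979 and 0.64.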

How the data were processed

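RNA of 6 libraries was sequenced. The submitters' processing notes name fastp, HISAT, RSEM and the build GRCm38.p5, while versions, roles and the strand setting are not given in the sources used. The authors deposited values that carry decimals and sum to 969834 to 985045 per library, read here as TPM although the table is presented as raw counts. Depth is therefore unknown, and no counting interval is given. The 6 single-library tables equalled the series table.

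Genes with at least 1 TPM in 3 libraries were tested on log2(TPM + 1) with limma 3.58.1 in R 4.3.3 (mean-variance trend, two-sided, Benjamini-Hochberg over all genes, threshold 0.05), after a test on simulated data. Intervals are 95% and unadjusted. Coordinates came from GENCODE M21 (GRCm38), in which 68 of 68 members matched by identifier. Promoters from RefSeq (GRCm38.p6) matched 53 members. The members and lists were chosen with earlier results of these data known. Per-library values were given by rule for Trim41, the 5 highest members, members without overlap that differed by at least 0.5 in log2, interferon-listed members and those at the threshold. Those of Trim3, Trim7, Trim24, Trim33, Trim37, Trim39, Trim46, Trim62 and Trim68 were given outside these rules. Planned protein features were not computed. The values of some genes of the pathway lists are not reported here, though they stay in the counts. Alternatives were other pseudocounts, filters, scalings and weights, and each library left out.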

Additional observations from a re-analysis of the deposited data

How the results depend on the processing

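No paired analysis was made because the labels name no pairing between WT and A10KO libraries. In 15 alternatives 0 Trim members were called each time. Over all genes 5 were called, with 25 under array quality weights, 3 under quantile normalization and 2 to 8 with a library left out. The log2 change of Trim41 ran from -0.13 to 0.26 with a library left out, negative without A10KO replicate 1 (-0.13), with limma adjusted p from 0.687 to 0.999 over all alternatives. The median log2 change of the members (-0.01) was 0.05 with a filter of 5 TPM, 0.04 under quantile normalization, 0.04 without mitochondrial transcripts, 0.05 with array weights and -0.06 to 0.02 with a library left out. With a filter of 5 TPM in 3 libraries 18 members were expressed in place of 33; with a library left out, 30 to 32. Members at an unadjusted p under 0.05 numbered 1 with the 5 TPM filter and 5 without A10KO replicate 1, in place of 3. Among named members, changes near 0 turned sign, and so did the larger change of Trim7. Trim35 (-0.01) was 0.03 under median-of-ratios and trimmed-mean scaling, 0.04 under quantile normalization and without mitochondrial transcripts, 0.07 with array weights and -0.08 to 0.11 with a library left out. Trim56 (-0.05) was 0.01 under quantile normalization, 0.10 with array weights and -0.27 to 0.29 with a library left out. Trim44 (-0.08) was 0 with array weights and -0.28 to 0.20 with a library left out, Trim26 (0.02) -0.03 to 0.05, and Trim7 (-0.43) -1.07 to 0.03. With a pseudocount of 0.1 the changes of Trim34a and Trim12a were -2.41 and -2.38. The limma adjusted p of Trim14 ran from 0.0516 without A10KO replicate 13 (log2 change 0.84) to 0.958 without WT replicate 3 (log2 change 0.61). Depth is unknown, so zeros do not show absence. Causes were not tested.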
